A study of Arabidopsis thaliana with 36 samples.

Results

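Basal hypocotyl segments of the cytokinin receptor double mutant ahk3 ahk4 were compared with those of wild type (WT) at 0 h after wounding. These are 3 ahk3 ahk4 and 3 WT libraries of the 36 in the study, chosen by the genotype, region and time in their labels. The study profiled 3' ends of mRNA (QuantSeq, forward kit) in Arabidopsis thaliana, in 12 groups of 3 libraries by genotype, region (basal and medial) and time (0, 8 and 16 h after wounding). Its title names the competence for reprogramming in adventitious root formation. The ahk3 ahk4 group carries mutations in both receptor genes, and the labels give neither alleles nor crossing history. The WT group is accession Col-0. Seedlings of both genotypes had grown for 5 days in low light before they were cut above the junction of root and shoot, and basal segments of 2 to 3 mm were taken from the hypocotyl, the seedling stem. All 6 samples are therefore cut tissue collected at the time of the cut. The labels call the replicates biological and do not say how many seedlings each held, so p-values measure the spread between libraries of a group, estimated over all 12 groups, which may be technical.

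AHK2, AHK3 and AHK4 are membrane histidine kinases that bind cytokinin, a plant hormone of cell division and shoot growth. Bound receptors pass phosphate through histidine phosphotransfer proteins (AHPs) to response regulators in the nucleus. Type-B regulators are transcription factors, and type-A regulators are among the genes they switch on and damp the signal. Cytokinin and auxin act on each other's pathways, and auxin is the main hormone that starts adventitious roots and stretches hypocotyl cells.

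The ahk3 ahk4 libraries held 9113339, 6136167 and 9137274 reads assigned to genes and the WT libraries 8687698, 9827555 and 11138507. Reads aligned at more than 1 place, which were not counted for any gene, made up 54.3%, 60.3% and 44.2% of the reads of the ahk3 ahk4 libraries and 34.9%, 36.1% and 40.5% of the WT libraries. Every ahk3 ahk4 library lay above every WT library in this share, and its part in the results was not tested beyond a fit that holds it as a covariate. With that covariate 295 of the 443 genes called lower and 118 of the 167 called higher were still called in the same direction. Reads outside annotated genes were 3.91% to 4.61% in ahk3 ahk4 and 3.45% to 3.92% in WT, of reads assigned to genes or falling outside them. Plastid genes took 1.47% to 1.77% of assigned reads in ahk3 ahk4 and 1.11% to 1.37% in WT. Every pair of replicates differed by more than sampling noise.

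**Figure D1:**
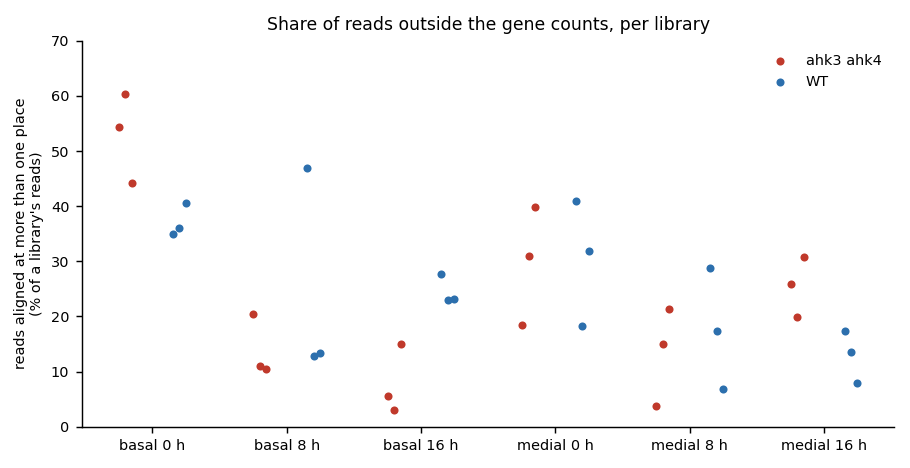
Share of each library's reads that aligned at more than 1 place (vertical axis, percent of all reads of the library) for the 36 libraries, by region and time, with ahk3 ahk4 left of WT in each pair. The 3 ahk3 ahk4 basal 0 h libraries, at 44.2% to 60.3%, stand above the 3 WT basal 0 h libraries, at 34.9% to 40.5%.

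Of the 19819 genes tested, 610 were called (3.08%), of which 443 were lower in ahk3 ahk4 (2.24%) and 167 were higher (0.843%). A gene was called at an adjusted p under 0.05 by edgeR's quasi-likelihood test with Benjamini-Hochberg adjustment over all genes tested, and every adjusted p below is from that test unless DESeq2 is named. Levels are CPM, a gene's count relative to the TMM-adjusted total of its library, and replicates are given in the order 1, 2 and 3. Means stand with SD over 3 libraries, and fold changes are log2 of ahk3 ahk4 over WT with SE. That SE was derived from the test, as the size of the fold change over the square root of its F statistic. The median fold change was -1.78 over the genes called lower, 1.199 over those called higher and -0.01 over all genes. Of the lower genes 406 fell by at least 1 on the log2 scale and 187 by at least 2, and of the higher genes 121 reached 1 and 24 reached 2. Libraries are named by genotype and replicate, so that WT 1 is replicate 1 of the WT basal 0 h group, and a value given as "without" a library is from the same fit with that library left out. The adjusted p stands in parentheses where a call was lost. In 33 of the lower genes no ahk3 ahk4 library had a read, and in 5 of the higher genes no WT library had one. In 600 of the 610 called genes the libraries did not overlap, which also held in the lower direction for 13.3% and in the higher direction for 10.9% of all genes. When 1 of the 6 libraries was left out, the refits called between 247 and 344 genes lower and between 68 and 137 higher in all. Of the 443 lower genes the fewest were called again without ahk3 ahk4 1 (223), and of the 167 higher genes the fewest without WT 1 (63). In these bulk samples fewer cells of a type and less RNA per cell cannot be told apart.

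**Figure D2:**
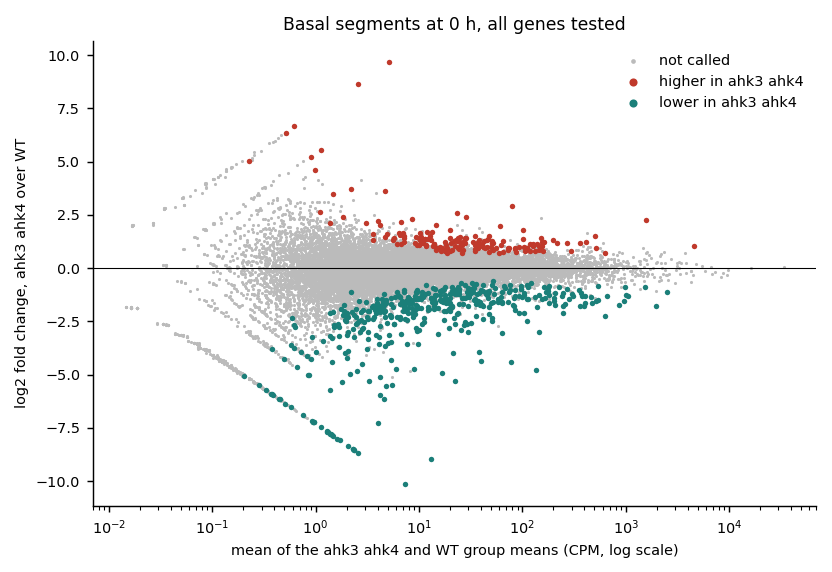
Log2 fold change of ahk3 ahk4 over WT (vertical axis) against the mean of the group means in CPM (horizontal axis, log scale), 1 point per gene tested, with genes called lower in teal and genes called higher in red. More genes were called lower (443) than higher (167), and the diagonal rows at low CPM are genes with no or very few reads in 1 of the groups, whose fitted fold changes do not measure size.

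Both mutated receptor genes were called lower, and no type-A response regulator was. AHK3 had 8.71, 3.38 and 8.63 CPM in the ahk3 ahk4 libraries, against 164, 138 and 143 CPM in the WT libraries (-4.40 ± 0.37, adjusted p = 8.73e-10). AHK4 had 0.726, 0.161 and 0.305 CPM in the ahk3 ahk4 libraries, against 10.9, 9.63 and 14.1 CPM in the WT libraries (-4.75 ± 0.63, adjusted p = 6.43e-06), and its fold change was -5.49 without ahk3 ahk4 1. Both genes were far below WT in every mutant library, yet a 3' end read from outside the mutated part of a gene would be no check of the mutation, and the labels do not locate the mutations. AHK2, the remaining receptor, had 2.70, 6.92 and 5.28 CPM in the ahk3 ahk4 libraries, against 5.98, 8.14 and 6.11 CPM in the WT libraries, so that the groups overlapped (-0.45 ± 0.54, adjusted p = 0.797). Of the type-A regulators, which serve as a read-out of cytokinin signalling, 8 of 10 were tested and 0 were called by edgeR or DESeq2, with 2 at an unadjusted p under 0.05. These were ARR8 and ARR9, each below WT in every library. ARR8 had 24.5, 27.2 and 17.4 CPM in ahk3 ahk4, against 37.1, 42.8 and 45.0 CPM in WT (-0.86 ± 0.40, adjusted p = 0.301). ARR9 had 36.7, 60.7 and 40.5 CPM in ahk3 ahk4, against 77.9, 106 and 74.5 CPM in WT (-0.91 ± 0.39, adjusted p = 0.239). ARR4 was above WT in every library, at 83.2, 87.6 and 75.5 CPM in ahk3 ahk4, against 54.7, 74.0 and 68.3 CPM in WT (0.32 ± 0.21, adjusted p = 0.531). The list's median was -0.57, or -0.30 with the 1 member that had no mutant read at its bound.

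Few genes of the other parts of the pathway were called. Among AHPs 0 of 5, and among type-B regulators 0 of 6, were called by either tool, with 1 and 0 at an unadjusted p under 0.05. Of 8 breakdown and conjugation genes edgeR called 0 and DESeq2 1, and 1 had an unadjusted p under 0.05. ST4B, a sulfotransferase from the list of cytokinin-induced genes, was the single member called of 7. It had 4.77, 5.79 and 4.26 CPM in the ahk3 ahk4 libraries, against 55.8, 23.8 and 23.8 CPM in the WT libraries, and WT 1 was the highest by far (-2.81 ± 0.35, adjusted p = 2.67e-06). IPT5, an isopentenyltransferase that makes cytokinin precursors, was the single gene called of 11 for synthesis and activation. Its levels were 32.97, 36.1 and 36.1 CPM in the ahk3 ahk4 libraries, against 11.3, 19.6 and 14.4 CPM in the WT libraries (1.21 ± 0.34, adjusted p = 0.0406), and the call ended without ahk3 ahk4 1, 2 or 3 or WT 1 or 3 (up to 0.226). The summed level of that list was 133 ± 2.67 CPM in ahk3 ahk4 and 91.2 ± 9.79 CPM in WT.

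Most SAUR genes on the list were lower in ahk3 ahk4. They encode small auxin-induced proteins that promote cell expansion, and 13 of 16 tested were called lower and none higher, where 2.24% of all genes were called lower. The members of this and the other lists were chosen with earlier results of these data known, so such shares are description and no test. All 16 SAUR genes lay below WT in every library, as did 13.3% of all genes. Their summed level was 2.28, 3.86 and 8.53 CPM in the ahk3 ahk4 libraries, against 98.0, 86.6 and 81.2 CPM in the WT libraries. The median fold change was -6.05, or -4.15 with the 6 members that had no mutant read at their bound. SAUR20 had 0.104, 0 and 0 CPM in the ahk3 ahk4 libraries, against 7.22, 7.94 and 8.64 CPM in the WT libraries, which is 1 read against 243 and a level lower by 205-fold by counts (95% interval 36.5 to 8149). SAUR24 was lower by 76.4-fold by counts (95% interval 25.9 to 373) and SAUR10 by 71.3-fold by counts (95% interval 24.1 to 348), each with 3 reads in the mutant. Both stood between 7.42 and 10.1 CPM in the WT libraries.

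SAUR21 (AT5G18030), SAUR22, SAUR15, SAUR23 and SAUR19 had no read in any ahk3 ahk4 library. SAUR21 had 5.87, 2.28 and 6.02 CPM in the WT libraries and was at least 40.5-fold lower in ahk3 ahk4, with 3 reads over the group taken as the mutant's upper limit, a limit that covers counting error only. By the same limit the mutant was at least 39.5-fold lower for SAUR22, 27.8-fold for SAUR15, 19.2-fold for SAUR23 and 16.4-fold for SAUR19. Without WT 1 the bounds were 25.4 for SAUR22 and 10.1 for SAUR19. SAUR16 had 0, 0 and 0.508 CPM in ahk3 ahk4, against 8.35, 10.9 and 9.08 CPM in WT (-5.55 ± 0.90, adjusted p = 0.000275), with a fold change of -4.94 without ahk3 ahk4 1 and -9.54 without ahk3 ahk4 3. SAUR14 had 0.207, 0.322 and 3.55 CPM in ahk3 ahk4, against 7.90, 7.34 and 10.5 CPM in WT, and the mutant library with the highest value was replicate 3 (-2.56 ± 0.52, adjusted p = 0.00268; -5.01 without ahk3 ahk4 3). SAUR64 (-3.58 ± 0.73, adjusted p = 0.00286; -2.94 without ahk3 ahk4 1 and -4.35 without ahk3 ahk4 2), SAUR66 (-3.10 ± 0.67, adjusted p = 0.00482; -3.95 without ahk3 ahk4 3) and SAUR63 (adjusted p = 0.0101) were called too. The calls of SAUR10 without ahk3 ahk4 1 or 3 (up to 0.0702), SAUR19 without ahk3 ahk4 1, 2 or 3 or WT 1 (up to 0.072), SAUR63 without ahk3 ahk4 1 or 3 (up to 0.0889) and SAUR66 without ahk3 ahk4 1 (0.0553) were lost. DESeq2 did not call SAUR19 (adjusted p = 0.142) or SAUR23 (0.275). SAUR19 to SAUR24 are near-identical neighbouring copies, so reads may be split among them or left uncounted as aligned at more than 1 place, and which copy they came from is uncertain. With the share of such reads as a covariate, 13 of the 16 SAUR genes were again called lower. That share describes a whole library, so the fit cannot show how many reads of these copies were lost or misplaced.

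Further auxin-induced genes moved the same way. The Aux/IAA proteins repress auxin response factors and are induced by auxin in turn. Of the 13 members chosen for the list, 8 were called lower (2.24% of all genes) and none higher. The list's median was -1.43, and its summed level was 895 ± 67.7 CPM in ahk3 ahk4 and 1839 ± 70.2 CPM in WT. IAA17 had 157, 196 and 182 CPM in the ahk3 ahk4 libraries, against 656, 616 and 554 CPM in the WT libraries (-1.77 ± 0.27, adjusted p = 7.05e-05). IAA1 had 7.15, 7.08 and 4.47 CPM in the ahk3 ahk4 libraries, against 41.5, 47.8 and 24.7 CPM in the WT libraries (-2.61 ± 0.36, adjusted p = 1.19e-05). IAA14 had 0.829, 0.322 and 1.83 CPM in the ahk3 ahk4 libraries, against 11.7, 3.97 and 12.3 CPM in the WT libraries (-3.13 ± 0.55, adjusted p = 0.000531; -3.89 without ahk3 ahk4 3). In each of these the highest mutant library stood under the lowest WT library. IAA2 (-1.43 ± 0.33, adjusted p = 0.0102), IAA19 (-2.62 ± 0.60, adjusted p = 0.00963) and IAA3 (-0.82 ± 0.23, adjusted p = 0.0346) were called with less margin. The calls were lost for IAA2 without ahk3 ahk4 3 (0.0736), IAA19 without ahk3 ahk4 1 or 2 or WT 1 (up to 0.0708) and IAA3 without ahk3 ahk4 1 or 2 or WT 1, 2 or 3 (up to 0.188). IAA5 was lower by 47.4-fold by counts (95% interval 12.8 to 396), and IAA6, with no mutant read, by at least 16.3-fold. IAA7, at 278, 294 and 288 CPM in ahk3 ahk4, against 525, 484 and 424 CPM in WT, missed the threshold (-0.74 ± 0.22, adjusted p = 0.0508).

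GH3 enzymes join auxin to amino acids and so lower its free level, and 3 of 5 tested were called lower (2.24% of all genes). GH3.6 had 9.02, 8.69 and 10.2 CPM in the ahk3 ahk4 libraries, against 38.7, 30.3 and 29.2 CPM in the WT libraries (-1.81 ± 0.27, adjusted p = 3.45e-05). GH3.5 had 9.64, 8.21 and 7.92 CPM in the ahk3 ahk4 libraries, against 41.1, 38.3 and 35.3 CPM in the WT libraries (-2.15 ± 0.36, adjusted p = 0.000216). All mutant libraries of both genes lay below all WT libraries. GH3.3 averaged 0.791 ± 0.771 CPM in ahk3 ahk4 and 9.36 ± 3.62 CPM in WT (-3.53 ± 0.98, adjusted p = 0.0373; -4.74 without ahk3 ahk4 3), a call lost without ahk3 ahk4 1 or 2 or WT 1, 2 or 3 (up to 0.182). The list's median was -2.15, or -1.81 with members lacking reads at their bound. LAX2, an auxin influx carrier, was the single gene called of 16 for auxin synthesis and transport, at 12.3, 6.44 and 7.82 CPM in ahk3 ahk4, against 47.0, 31.9 and 37.3 CPM in WT (-2.12 ± 0.27, adjusted p = 3.75e-06). Its relative LAX3 was above WT in every library, at 90.5, 86.9 and 92.6 CPM in ahk3 ahk4, against 49.3, 59.0 and 48.7 CPM in WT, and missed the threshold (0.78 ± 0.23, adjusted p = 0.0554).

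Some genes that loosen the cell wall were lower as well. Expansins let wall polymers slip, and xyloglucan endotransglucosylases/hydrolases (XTHs) cut and rejoin xyloglucan chains. Of 15 tested members of these families on the list, 5 were called lower (2.24% of all genes) and none higher, and the list's median was -1.13. EXPA11 had 0.726, 1.45 and 5.18 CPM in the ahk3 ahk4 libraries, against 54.8, 30.6 and 34.3 CPM in the WT libraries (-3.97 ± 0.48, adjusted p = 3.73e-06; -5.25 without ahk3 ahk4 3). EXPA8 had 0, 0 and 0.609 CPM in the ahk3 ahk4 libraries, against 19.97, 5.46 and 6.81 CPM in the WT libraries (-5.47 ± 0.79, adjusted p = 7.55e-05), and its fold change was -4.69 without WT 1, -4.84 without ahk3 ahk4 1 and -9.72 without ahk3 ahk4 3. All mutant libraries of both lay below all WT libraries. XTH17 had 4.46, 2.58 and 6.50 CPM in the ahk3 ahk4 libraries, against 90.4, 80.1 and 44.7 CPM in the WT libraries (-3.96 ± 0.60, adjusted p = 0.000126). XTH19 had 4.56, 5.15 and 10.2 CPM in the ahk3 ahk4 libraries, against 54.8, 54.5 and 49.2 CPM in the WT libraries (-2.98 ± 0.46, adjusted p = 0.000126). XTH20 averaged 14.9 ± 2.57 CPM in ahk3 ahk4 and 30.9 ± 9.41 CPM in WT (-1.05 ± 0.29, adjusted p = 0.0343), and its call ended without ahk3 ahk4 1, 2 or 3 or WT 1 (up to 0.22). XTH32, of the same family but outside the list, had 1.87, 0.644 and 3.35 CPM in the ahk3 ahk4 libraries, against 7.44, 12.1 and 11.2 CPM in the WT libraries (-2.31 ± 0.28, adjusted p = 1.81e-06; -2.93 without ahk3 ahk4 3).

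Of 18 aquaporins, the water channels of plasma membrane and vacuole, 3 were called lower (2.24% of all genes), and the list's median was -0.31. PIP2;7, a plasma membrane channel, had 239.7, 263 and 274 CPM in the ahk3 ahk4 libraries, against 962, 614 and 725 CPM in the WT libraries (-1.57 ± 0.20, adjusted p = 2.73e-06). TIP2;1, a channel of the vacuole membrane, averaged 1573 ± 28.1 CPM in ahk3 ahk4 and 3446 ± 557 CPM in WT (-1.13 ± 0.29, adjusted p = 0.0208). PIP2;8 averaged 0.878 ± 0.673 CPM in ahk3 ahk4 and 4.66 ± 2.33 CPM in WT (-2.44 ± 0.60, adjusted p = 0.0158). The call of PIP2;7 held without any of the 6 libraries. Those of TIP2;1 without ahk3 ahk4 1, 2 or 3 or WT 1 or 3 (up to 0.0912) and PIP2;8 without ahk3 ahk4 3 or WT 2 (up to 0.111) did not.

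**Figure D3:**
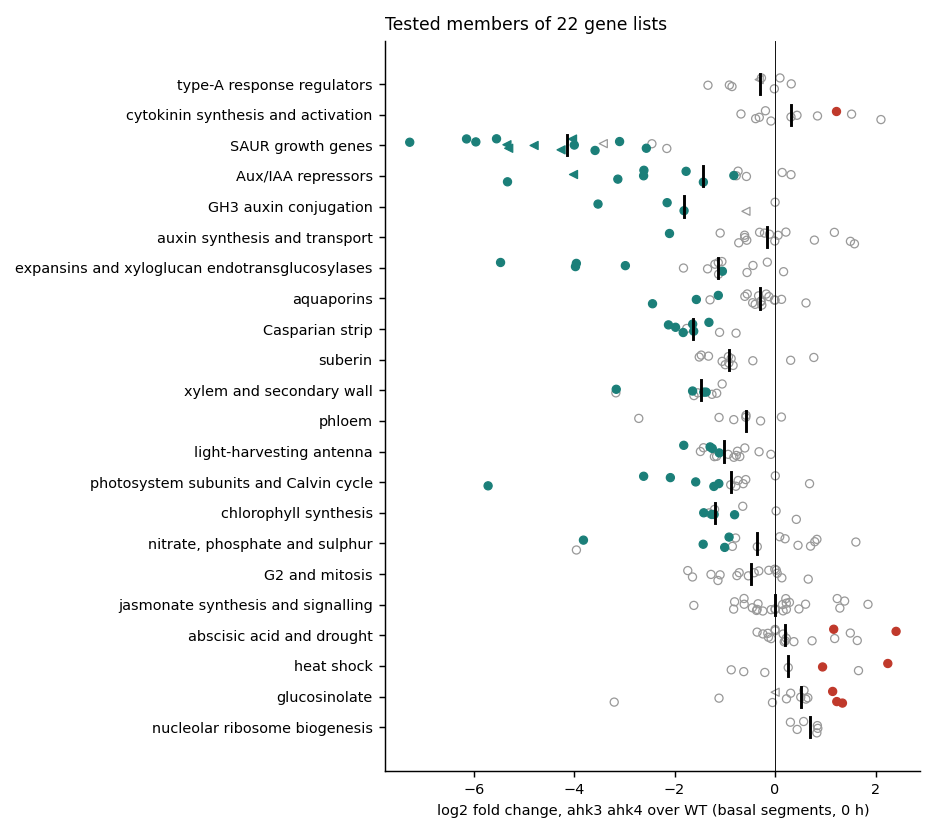
Log2 fold change of ahk3 ahk4 over WT (horizontal axis) for each tested member of 22 gene lists, with called genes filled, other genes open, triangles at the bound for genes without a read in 1 group, and a black bar at the list's median. Of the SAUR genes 13 of 16 were called lower, while the called members of the heat shock, glucosinolate and abscisic acid lists lie to the right.

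RGF6 was almost without reads in ahk3 ahk4, and its call held without any of the 6 libraries. It encodes a secreted peptide of the root meristem growth factor family. A single read was counted in the mutant and 770 in WT, at 0, 0 and 0.102 CPM in the ahk3 ahk4 libraries, against 34.4, 24.9 and 18.7 CPM in the WT libraries, a level lower by 651-fold by counts (95% interval 117 to 25752). AT5G19890, a peroxidase gene, had no read in the mutant and 2.71, 39.7 and 1.13 CPM in WT, so that WT 2 carried nearly all of it. It was at least 124-fold lower, or 16.5-fold without WT 2, and the call was lost without ahk3 ahk4 1, 2 or 3 or WT 2 (up to 0.373). AT2G21045, annotated as a rhodanese-type phosphatase, showed the same lone high library, with 1.13, 13.6 and 0.873 CPM in WT and none in the mutant. Its bound was 44.5-fold, or 8.57-fold without WT 2, and the call was lost without ahk3 ahk4 1, 2 or 3 or WT 2 (up to 0.219). AT2G05510, a glycine-rich protein gene, had 1.14, 0.805 and 1.32 CPM in ahk3 ahk4, against 34.9, 50.9 and 45.3 CPM in WT (-5.28 ± 0.88, adjusted p = 0.000405). AT3G12710, annotated as a DNA glycosylase, had 1.87, 1.13 and 0.203 CPM in ahk3 ahk4, against 42.1, 27.0 and 27.7 CPM in WT (-4.91 ± 0.58, adjusted p = 2.54e-06; -5.76 without ahk3 ahk4 1). AT4G10160, a RING/U-box protein gene, had 0.207, 0 and 0.203 CPM in ahk3 ahk4, against 9.25, 6.15 and 4.02 CPM in WT (-5.29 ± 0.96, adjusted p = 0.000667). These 3 were low in all mutant libraries. AT4G15670, a thioredoxin family gene, averaged 0.223 ± 0.259 CPM in ahk3 ahk4 and 8.27 ± 2.90 CPM in WT, and its call (adjusted p = 0.0417) ended for AT4G15670 without any of the 6 libraries (up to 0.183).

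Markers of the endodermis that build the Casparian strip, the lignin barrier that seals this cell layer, were lower together. All 9 tested lay below WT in every library, as did 13.3% of all genes, and 6 were called lower, as were 2.24% of all genes. The summed level was 822 ± 28.1 CPM in ahk3 ahk4 and 2386 ± 167 CPM in WT, and the median fold change was -1.64. CASP1, one of the membrane proteins that mark where the strip forms, had 219, 217 and 248 CPM in the ahk3 ahk4 libraries, against 621, 789.7 and 724 CPM in the WT libraries (-1.64 ± 0.28, adjusted p = 0.000223). CASP2 had 29.2, 38.3 and 35.2 CPM in the ahk3 ahk4 libraries, against 140.1, 139 and 127 CPM in the WT libraries (-1.98 ± 0.40, adjusted p = 0.00253). In both genes the groups lay well apart and the replicates of each close together. PER64, a peroxidase that lignifies the strip, had 65.1, 60.7 and 58.1 CPM in the ahk3 ahk4 libraries, against 188, 225 and 241 CPM in the WT libraries (-1.83 ± 0.30, adjusted p = 0.000126). ESB1, a dirigent-domain protein of the strip, averaged 378 ± 32.3 CPM in ahk3 ahk4 and 942 ± 69.7 CPM in WT (-1.32 ± 0.32, adjusted p = 0.0127). CASP4 averaged 31.5 ± 4.85 CPM in ahk3 ahk4 and 96.9 ± 28.0 CPM in WT (-1.62 ± 0.39, adjusted p = 0.0134), and the calls of CASP4 without ahk3 ahk4 2 or 3 or WT 3 (up to 0.0824) and ESB1 without ahk3 ahk4 1 or 3 (up to 0.0646) were lost. MYB36, the transcription factor that switches these genes on, had 26.3, 30.1 and 28.1 CPM in ahk3 ahk4, against 50.5, 52.5 and 41.9 CPM in WT and missed the threshold (-0.78 ± 0.24, adjusted p = 0.0607).

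Suberin genes, which mark a later step of the same layer, gave no call in 12 tested by edgeR (median -0.93). Of the 12, 7 lay below WT in every library (13.3% of all genes) and 1 above (10.9% of all genes). At an unadjusted p under 0.05 there were 2 lower and 1 higher, and DESeq2 called 1 in each direction. Of 10 xylem and secondary wall genes 4 were called lower (2.24% of all genes), all 10 lay below WT in every library (13.3% of all genes), and the list's median was -1.48. Among them were CESA4, CESA7 and CESA8, the cellulose synthases of secondary walls. CESA4 averaged 17.1 ± 2.73 CPM in ahk3 ahk4 and 44.3 ± 14.4 CPM in WT (-1.37 ± 0.34, adjusted p = 0.0166). CESA7 averaged 3.49 ± 0.583 CPM in ahk3 ahk4 and 11 ± 6.68 CPM in WT (-1.64 ± 0.40, adjusted p = 0.0131; -1.05 without WT 2). CESA8 averaged 15.1 ± 4.79 CPM in ahk3 ahk4 and 40.5 ± 14.0 CPM in WT (-1.42 ± 0.34, adjusted p = 0.0125). LAC4, a laccase that polymerises lignin, averaged 0.758 ± 0.615 CPM in ahk3 ahk4 and 6.96 ± 1.73 CPM in WT (-3.16 ± 0.71, adjusted p = 0.00652; -4.09 without ahk3 ahk4 3). The calls were lost for CESA4 without ahk3 ahk4 1 or 3 or WT 2 (up to 0.121), CESA7 without ahk3 ahk4 1 or 2 or WT 2 (up to 0.22), CESA8 without ahk3 ahk4 1 or 2 or WT 2 (up to 0.112) and LAC4 without ahk3 ahk4 1 (0.0702). Without ahk3 ahk4 1 none of the 10 was called. Phloem genes (7 tested, median -0.58) and cambium genes (12 tested, median -0.36) gave 0 calls by edgeR and by DESeq2, with 3 and 2 lower at an unadjusted p under 0.05. Below WT in every library were 5 of the 7 phloem and 4 of the 12 cambium genes (13.3% of all genes).

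Genes of photosynthesis were called lower and none higher. Of 13 photosystem and Calvin cycle genes 6 were called lower, where 2.24% of all genes were. The list's median was -0.88, with summed levels of 657 ± 12.3 CPM in ahk3 ahk4 and 1146 ± 105 CPM in WT. PRK, the phosphoribulokinase of the Calvin cycle, had 2.59, 3.38 and 3.05 CPM in the ahk3 ahk4 libraries, against 17.3, 17.7 and 20.2 CPM in the WT libraries (-2.62 ± 0.38, adjusted p = 2.4e-05). RBCS1A, a small subunit of Rubisco, had 34.0, 31.5 and 30.0 CPM in the ahk3 ahk4 libraries, against 75.9, 57.3 and 89.2 CPM in the WT libraries (-1.22 ± 0.26, adjusted p = 0.00389). RBCS3B had 4.35, 2.41 and 2.84 CPM in the ahk3 ahk4 libraries, against 15.6, 9.23 and 16.7 CPM in the WT libraries (-2.09 ± 0.32, adjusted p = 6.55e-05). All mutant libraries of these genes were under all WT libraries. RBCS2B, with 1 read in the mutant and 82 in WT, was lower by 69.3-fold by counts (95% interval 12.1 to 2772). RBCS1B, another small subunit gene on the list, went the other way with a fold change of 0.69 and was not called. The small subunit genes are close copies whose reads cannot all be told apart. PSBP-1, a protein of the oxygen-evolving complex, averaged 28.8 ± 5.13 CPM in ahk3 ahk4 and 86.4 ± 10.7 CPM in WT (-1.58 ± 0.27, adjusted p = 0.000247). PSAN, a photosystem I subunit, averaged 28.6 ± 2.65 CPM in ahk3 ahk4 and 62.3 ± 3.51 CPM in WT (-1.12 ± 0.29, adjusted p = 0.0235), and its call ended without ahk3 ahk4 1, 2 or 3 or WT 2 or 3 (up to 0.11).

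All 16 light-harvesting antenna genes had negative fold changes (list median -1.02). Of these, 13 lay below WT in every library (13.3% of all genes), and 4 were called lower (2.24% of all genes). The summed level of the antenna list was 2569 ± 60.5 CPM in ahk3 ahk4 and 4460.2 ± 140.4 CPM in WT. LHCB2.2 averaged 21.0 ± 9.44 CPM in ahk3 ahk4 and 73.9 ± 6.55 CPM in WT (-1.82 ± 0.44, adjusted p = 0.0154). LHCB4.2 averaged 49.0 ± 13.2 CPM in ahk3 ahk4 and 120.1 ± 18.7 CPM in WT (-1.29 ± 0.30, adjusted p = 0.0106). LHCB6 averaged 61.0 ± 8.19 CPM in ahk3 ahk4 and 145 ± 10.1 CPM in WT (-1.25 ± 0.32, adjusted p = 0.0209). LHCB3 averaged 108 ± 4.57 CPM in ahk3 ahk4 and 233 ± 23.1 CPM in WT (-1.11 ± 0.29, adjusted p = 0.0208). The calls were lost for LHCB2.2 without ahk3 ahk4 2 or 3 (up to 0.0956), LHCB4.2 without ahk3 ahk4 1 or 3 (up to 0.0819), LHCB6 without ahk3 ahk4 1, 2 or 3 or WT 3 (up to 0.0946) and LHCB3 without ahk3 ahk4 1, 2 or 3 or WT 2 (up to 0.0899). With the share of reads aligned at more than 1 place as a covariate 1 of the 16 was called. A fit of the 6 libraries alone called 12. Of 9 chlorophyll synthesis genes 4 were called lower (2.24% of all genes). The list's summed level was 117 ± 6.88 CPM in ahk3 ahk4 and 218 ± 8.06 CPM in WT. PORB, which makes chlorophyllide in light, had 14.5, 17.2 and 12.2 CPM in the ahk3 ahk4 libraries, against 40.5, 40.9 and 35.96 CPM in the WT libraries (-1.42 ± 0.32, adjusted p = 0.00654). CRD1 (-1.21 ± 0.25, adjusted p = 0.00301), GUN5 (-0.81 ± 0.20, adjusted p = 0.0163) and CHLM (-1.26 ± 0.31, adjusted p = 0.0164), which act earlier in that pathway, were called too. The calls of CRD1 without ahk3 ahk4 2 (0.0505), GUN5 without ahk3 ahk4 1 or 3 or WT 1 or 3 (up to 0.0995) and CHLM without ahk3 ahk4 3 (0.126) were lost.

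Of 15 nitrate, phosphate and sulphur genes edgeR called 4 lower (2.24% of all genes) and none higher, while DESeq2 called 4 lower and 1 higher. NIA2, the main nitrate reductase, had 50.7, 67.3 and 61.1 CPM in the ahk3 ahk4 libraries, against 138, 188 and 157 CPM in the WT libraries (-1.43 ± 0.21, adjusted p = 4.29e-05). NRT1.1, a nitrate transporter and sensor, averaged 124 ± 22.2 CPM in ahk3 ahk4 and 234 ± 11.4 CPM in WT (-0.92 ± 0.20, adjusted p = 0.00551). NIR1, nitrite reductase, averaged 64.7 ± 6.62 CPM in ahk3 ahk4 and 129.7 ± 6.94 CPM in WT (-1.004 ± 0.28, adjusted p = 0.0341). The fourth was NIA1, whose libraries overlapped (0, 0.966 and 0.406 CPM in ahk3 ahk4, against 1.47, 15.1 and 0.873 CPM in WT). NRT2.1, a transporter for nitrate uptake, was not called (-0.85 ± 0.79, adjusted p = 0.704). The calls were lost for NRT1.1 without ahk3 ahk4 2 (0.0581), NIR1 without any of the 6 libraries (up to 0.12) and NIA1 without ahk3 ahk4 1, 2 or 3 or WT 2 (up to 0.573). ASN2, an asparagine synthetase, had 6.22, 10.1 and 5.58 CPM in the ahk3 ahk4 libraries, against 35.98, 39.6 and 33.4 CPM in the WT libraries (-2.33 ± 0.26, adjusted p = 5.31e-07). Of 9 iron genes 4 were tested, and 2 of these, the iron storage proteins FER1 and FER3, were called lower (2.24% of all genes). FER1 had 24.8, 36.1 and 24.8 CPM in the ahk3 ahk4 libraries, against 57.5, 73.7 and 61.5 CPM in the WT libraries (-1.18 ± 0.23, adjusted p = 0.00148). FER3 was called with less margin (-0.71 ± 0.21, adjusted p = 0.0496), and the call of FER3 was lost without ahk3 ahk4 1, 2 or 3 or WT 1 or 2 (up to 0.261).

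Of 12 genes of shade and PIF response 4 were called lower (2.24% of all genes), with a list median of 0.03. HAT2, a homeodomain leucine zipper factor of shade and auxin response, had 27.7, 18.8 and 19.4 CPM in the ahk3 ahk4 libraries, against 58.1, 52.4 and 40.9 CPM in the WT libraries (-1.20 ± 0.25, adjusted p = 0.0029). HAT1, of the same family, averaged 3.02 ± 2.06 CPM in ahk3 ahk4 and 10.02 ± 0.626 CPM in WT (-1.68 ± 0.49, adjusted p = 0.0473). HAT3, also of that family, averaged 0.609 ± 0.262 CPM in ahk3 ahk4 and 3.21 ± 2.36 CPM in WT (-2.42 ± 0.59, adjusted p = 0.0147; -1.64 without WT 3). ST2A, a sulfotransferase, averaged 37.8 ± 2.78 CPM in ahk3 ahk4 and 125 ± 67.5 CPM in WT (-1.72 ± 0.37, adjusted p = 0.00481). The calls were lost for HAT1 without any of the 6 libraries (up to 0.235), HAT3 without ahk3 ahk4 1 or WT 3 (up to 0.207) and ST2A without WT 2 (0.0501). LHY, a morning factor of the clock, was the 1 gene called of 16 clock genes, at 25.5, 32.0 and 22.7 CPM in ahk3 ahk4, against 61.7, 78.0 and 54.6 CPM in WT (-1.28 ± 0.30, adjusted p = 0.00934). Other single calls in a list were CYCD3;1, a D-type cyclin (-1.85 ± 0.52, adjusted p = 0.0377), CBF2, a cold response factor (-2.83 ± 0.74, adjusted p = 0.0238), and ACS2, an ethylene synthesis enzyme (-1.64 ± 0.44, adjusted p = 0.0272; -2.32 without ahk3 ahk4 3). None of these calls survived every omission, being lost for LHY without ahk3 ahk4 1 or 3 (up to 0.06), CYCD3;1 without ahk3 ahk4 1, 2 or 3 or WT 1 or 2 (up to 0.139), CBF2 without ahk3 ahk4 1, 2 or 3 or WT 1 or 2 (up to 0.129) and ACS2 without ahk3 ahk4 1 or 2 or WT 2 (up to 0.192).

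Fewer genes were higher in ahk3 ahk4, and HSP70 was among the most abundant of them. This cytosolic chaperone gene (AT3G12580) had 2604, 2873 and 2288 CPM in the ahk3 ahk4 libraries, against 421, 581 and 637 CPM in the WT libraries (2.24 ± 0.25, adjusted p = 5.31e-07), and every mutant library stood far above the highest WT library. It was 1 of 2 called higher of 7 heat shock genes, where 0.843% of all genes were called higher. The other was HSP101, a disaggregase (57.2 ± 6.02 CPM in ahk3 ahk4 and 29.7 ± 10.7 CPM in WT, 0.94 ± 0.27, adjusted p = 0.043). The call of HSP101 ended without ahk3 ahk4 1, 2 or 3 or WT 1 or 2 (up to 0.265). HSP90.1 was also above WT in every library, at 635, 816 and 492 CPM in ahk3 ahk4, against 173, 198 and 245 CPM in WT, and missed the threshold (1.66 ± 0.55, adjusted p = 0.107). The summed level of the list was 3402 ± 430.5 CPM in ahk3 ahk4 and 911 ± 159.5 CPM in WT, yet its median was 0.26. The heat shock factor HSFA2 had 16.8, 17.7 and 32.2 CPM in ahk3 ahk4, against 18.16, 17.0 and 20.6 CPM in WT (0.26 ± 0.39, adjusted p = 0.852). AT5G51440, annotated as an HSP20-like chaperone and outside the list, had 107, 97.7 and 90.07 CPM in the ahk3 ahk4 libraries, against 17.1, 30.4 and 26.0 CPM in the WT libraries (2.00 ± 0.27, adjusted p = 1.19e-05).

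**Figure D4:**
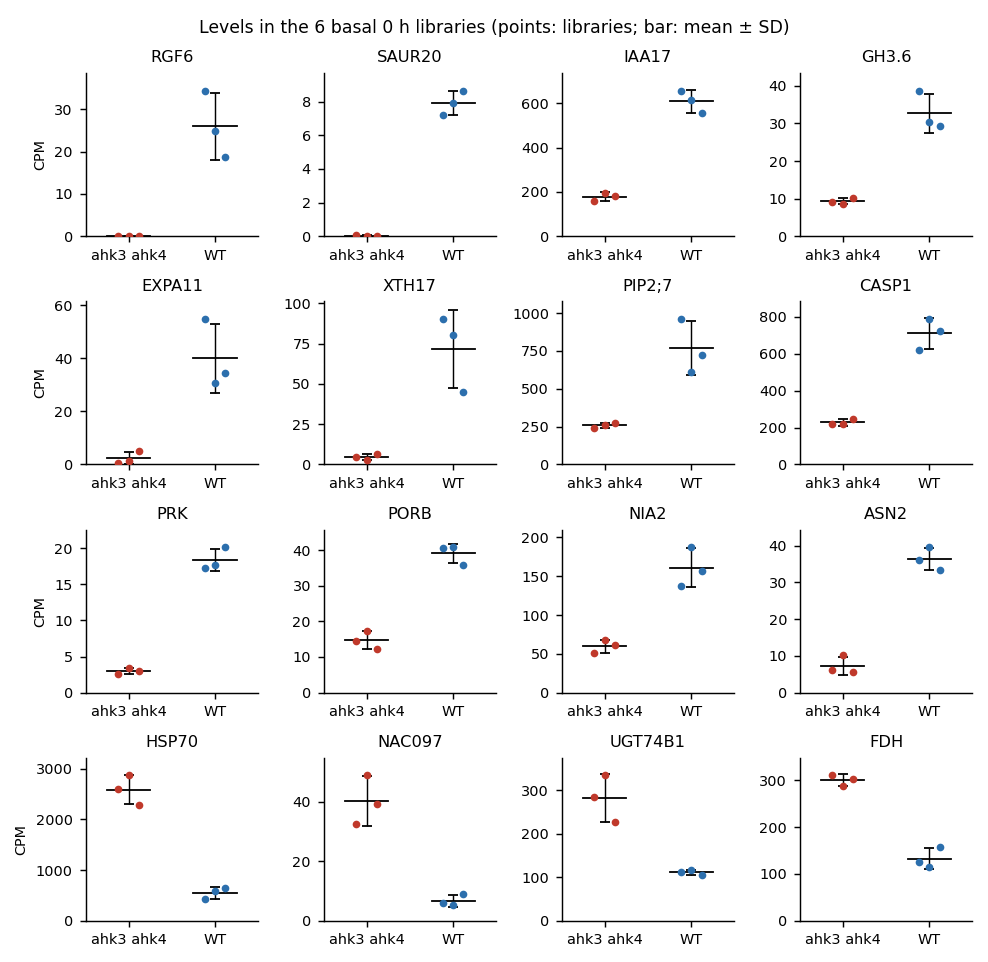
Levels in CPM (vertical axes, linear from 0) of 16 genes in the 3 ahk3 ahk4 and the 3 WT basal 0 h libraries, with points for libraries and bars for mean ± SD. Groups do not overlap in any panel: RGF6 to ASN2 are lower in ahk3 ahk4, and HSP70, NAC097, UGT74B1 and FDH are higher.

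Of 13 glucosinolate genes 3 were called higher and none lower, where 0.843% of all genes were called higher. The list's median was 0.51, and its summed level was 1302 ± 135 CPM in ahk3 ahk4 and 625 ± 118 CPM in WT. UGT74B1, a glucosyltransferase of the core pathway, had 285, 334 and 226 CPM in the ahk3 ahk4 libraries, against 111, 117 and 106 CPM in the WT libraries (1.34 ± 0.23, adjusted p = 0.000265). SOT16, the sulfotransferase that acts after it, had 627, 600.5 and 508 CPM in the ahk3 ahk4 libraries, against 277, 275 and 189 CPM in the WT libraries (1.23 ± 0.22, adjusted p = 0.000608). CYP83B1, which serves the indole branch, averaged 190.3 ± 19.7 CPM in ahk3 ahk4 and 86.1 ± 28.3 CPM in WT (1.15 ± 0.30, adjusted p = 0.0245), and its call ended without ahk3 ahk4 1 or 2 or WT 1 or 3 (up to 0.163). All WT libraries were under all mutant libraries in these 3 genes. Among 18 abscisic acid and drought genes the related genes RD29A and RD29B were called higher (0.843% of all genes) and none was called lower. RD29A had 484, 497 and 530.2 CPM in the ahk3 ahk4 libraries, against 217, 226 and 229.6 CPM in the WT libraries (1.17 ± 0.25, adjusted p = 0.00489). RD29B had 40.2, 38.1 and 65.0 CPM in the ahk3 ahk4 libraries, against 8.80, 8.24 and 9.95 CPM in the WT libraries (2.41 ± 0.57, adjusted p = 0.0111), and its call ended without ahk3 ahk4 3 or WT 1 or 2 (up to 0.075).

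Shoot epidermis and wax genes were called in both directions. FDH, an epidermal enzyme of long fatty acid synthesis, had 311, 288 and 303 CPM in the ahk3 ahk4 libraries, against 125, 115 and 158 CPM in the WT libraries (1.18 ± 0.25, adjusted p = 0.00289). LTP1, a lipid transfer protein, had 68.4, 118 and 124 CPM in the ahk3 ahk4 libraries, against 313, 402 and 181 CPM in the WT libraries (-1.53 ± 0.30, adjusted p = 0.00155). CER4, which makes wax alcohols, had no read in the mutant and 2.59, 3.27 and 2.79 CPM in WT, at least 24.7-fold lower, a call lost without ahk3 ahk4 1, 2 or 3 (up to 0.0729). These were the 3 called of 15, 1 higher (0.843% of all genes) and 2 lower (2.24% of all genes). The list's median was 0.33, and its summed level was 4699 ± 758 CPM in ahk3 ahk4 and 3276 ± 434 CPM in WT. Of the 15, 6 lay above WT in every library (10.9% of all genes) and 2 below (13.3% of all genes). At an unadjusted p under 0.05 there were 6 higher and 2 lower, and DESeq2 called 2 higher and 1 lower. LACS1, an acyl-CoA synthetase of wax and cutin synthesis outside the list, had 8.40, 10.8 and 24.0 CPM in ahk3 ahk4, against 2.03, 3.08 and 3.67 CPM in WT (2.29 ± 0.42, adjusted p = 0.000701; 1.69 without ahk3 ahk4 3).

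Among the genes with the highest fold changes were several annotated as uncharacterized. AT1G64795 had 10.2, 5.63 and 15.3 CPM in the mutant and no read in WT, at least 105-fold higher. AT1G27565 had 6.53, 4.35 and 4.47 CPM and none in WT, at least 51.8-fold higher. AT3G56260 had 4.87, 10.1 and 11.1 CPM in the ahk3 ahk4 libraries, against 0.902, 0.695 and 0.524 CPM in the WT libraries (3.61 ± 0.43, adjusted p = 1.23e-06). AT3G24420, an alpha/beta hydrolase gene, had 139.7, 99.1 and 183 CPM in the ahk3 ahk4 libraries, against 13.1, 24.5 and 18.3 CPM in the WT libraries (2.91 ± 0.47, adjusted p = 0.000223). Every mutant library of both was well above every WT library. NAC097, a NAC transcription factor, had 32.3, 48.9 and 39.2 CPM in the ahk3 ahk4 libraries, against 5.98, 5.26 and 8.90 CPM in the WT libraries (2.57 ± 0.33, adjusted p = 4.43e-06). DAA1, a P-loop ATPase gene (23.4 ± 3.24 CPM in ahk3 ahk4 and 5.78 ± 2.85 CPM in WT, 2.00 ± 0.41, adjusted p = 0.00274), and AT5G09840, annotated as an endonuclease or glycosyl hydrolase (11.02 ± 3.04 CPM in ahk3 ahk4 and 2.44 ± 0.358 CPM in WT, 2.17 ± 0.34, adjusted p = 9.89e-05), held without any 1 library. MAKR4 averaged 6.73 ± 0.903 CPM in ahk3 ahk4 and 1.63 ± 0.585 CPM in WT (2.04 ± 0.59, adjusted p = 0.0499). AT1G61930 averaged 6.63 ± 3.72 CPM in ahk3 ahk4 and 1.39 ± 1.04 CPM in WT (2.23 ± 0.59, adjusted p = 0.0283). These calls were lost for MAKR4 without any of the 6 libraries (up to 0.227) and AT1G61930 without ahk3 ahk4 1 or 2 or WT 2 or 3 (up to 0.183).

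Single members of other lists were higher. ELIP1, an early light-induced protein, had 0.622, 3.54 and 2.54 CPM in ahk3 ahk4 and 1 read in WT, a level higher by 62.7-fold by counts (95% interval 10.8 to 2522). GATA23, a factor of root founder cells, had 0.726, 1.45 and 0.914 CPM in ahk3 ahk4 and no read in WT, at least 10.4-fold higher. TT4, chalcone synthase, was at least 4.64-fold higher on 10 reads, or 2.07-fold without ahk3 ahk4 2. DWF4, a brassinosteroid synthesis enzyme, averaged 66.9 ± 10.4 CPM in ahk3 ahk4 and 26.2 ± 2.37 CPM in WT (1.35 ± 0.38, adjusted p = 0.0384). The calls were lost for GATA23 without ahk3 ahk4 2 or WT 1, 2 or 3 (up to 0.068), TT4 without ahk3 ahk4 2 or WT 1, 2 or 3 (up to 0.147) and DWF4 without any of the 6 libraries (up to 0.149), and that of ELIP1 for none. EdgeR made no other call in the lists of 6 HY5-pathway, 15 root founder cell, 19 flavonoid, and 13 gibberellin and brassinosteroid genes. DESeq2 called 2 flavonoid genes higher, and 1 gibberellin and brassinosteroid gene higher and 2 lower.

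Several lists gave 0 calls by edgeR. Jasmonate genes (25 tested, median 0.00), salicylic acid and immunity genes (10, 0.12), low oxygen genes (10, 0.15) and wound-induced regeneration regulators (5, -0.17) gave 0 by DESeq2 too, with 4, 1, 2 and 1 at an unadjusted p under 0.05. The tested members were kept by a filter over all 36 libraries. JAZ8, PDF1.2, PR5 and HRE2 among them had no read in these 6 and could not be called. The jasmonate median is the value of such a gene. DNA replication genes (13, -0.36) gave 0 by DESeq2 and 1 at an unadjusted p under 0.05. G2 and mitosis genes (16, -0.47) gave 1 by DESeq2 and 5 at an unadjusted p under 0.05, and starvation genes (8, -0.30) gave 1 and 3. The median of the starvation list was negative, yet its summed level was 3983 ± 508 CPM in ahk3 ahk4 and 2721 ± 110 CPM in WT. All 6 nucleolar ribosome biogenesis genes had positive fold changes (median 0.70), and 5 lay above WT in every library, as did 10.9% of all genes. None of the 6 was called by either tool, and 3 had an unadjusted p under 0.05. Their summed level was 1302 ± 76.6 CPM in ahk3 ahk4 and 756 ± 22.7 CPM in WT.

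Markers of root hairs, root cap and seeds were at or near 0, as the label of hypocotyl would have it. Of 7 root hair and root cap genes 6 were at 0 in all 6 libraries, and none of 5 seed storage genes had enough reads to be tested, with summed levels of at most 1.35 CPM in ahk3 ahk4 and 1.48 CPM in WT. Stomatal genes summed to 0.207 to 7.73 CPM in ahk3 ahk4 and to 1.59 to 2.26 CPM in WT. Shoot meristem genes, mainly KNAT1, summed to 118 ± 16.5 CPM in ahk3 ahk4 and 95.4 ± 3.47 CPM in WT. Neither the stomatal nor the meristem list gave a call by edgeR or DESeq2, with 1 stomatal and 0 meristem genes at an unadjusted p under 0.05. Endodermis, xylem and epidermis markers were present in both genotypes at the levels given above.

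Medial hypocotyl segments at 0 h showed which of these differences were found away from the base. There 626 genes were lower (3.16%) and 518 higher (2.61%) in ahk3 ahk4. Called in the same direction at both places were 140 lower genes, which is 31.6% of the basal and 22.4% of the medial list, and 78 higher genes, 46.7% of the basal and 15.1% of the medial list. The difference between the 2 genotype differences passed the test for 47 genes (0.237%), 41 with a lower value (0.207%) and 6 with a higher value (0.0303%) in basal segments. No list held more than 2 of them.

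XTH32 was the 1 gene of the 610 (0.164%) called in opposite directions at the 2 places. It was lower in basal segments, as given above, and higher in medial segments, at 43.2 ± 4.62 CPM in ahk3 ahk4 and 11.4 ± 1.42 CPM in WT (1.92 ± 0.25, adjusted p = 4.23e-06). The fold changes differed by -4.23 ± 0.37, adjusted p = 3.88e-09. ASN2 was lower in basal segments, while medial levels were 12.1 ± 4.12 CPM in ahk3 ahk4 and 14.2 ± 2.31 CPM in WT (-0.23 ± 0.25, adjusted p = 0.708), a difference of -2.10 ± 0.36, adjusted p = 0.00643. RGF6 was lower at both places, with 32.1 ± 3.00 CPM in ahk3 ahk4 and 276 ± 43.1 CPM in WT in medial segments, and fell further at the base (adjusted p of the difference = 0.00738). SAUR20 did likewise, with medial levels of 13.5 ± 7.46 CPM in ahk3 ahk4 and 46.6 ± 0.594 CPM in WT (adjusted p of the difference = 0.00788). These 4 differences held without any of the 12 libraries involved. Those of SAUR24 (adjusted p = 0.0263), RBCS3B (-2.06 ± 0.42, adjusted p = 0.023), RBCS2B (0.0431), ST2A (-2.36 ± 0.51, adjusted p = 0.0303) and AT3G53940 (2.07 ± 0.44, adjusted p = 0.0262) were lost without at least 5 of the 12, with adjusted p up to 0.142. AT3G53940, a mitochondrial carrier gene, averaged 8.02 ± 1.38 CPM in ahk3 ahk4 and 3.19 ± 1.28 CPM in WT in basal segments (1.32 ± 0.31, adjusted p = 0.0106), and that call ended without ahk3 ahk4 2 or WT 1 or 3 (up to 0.0956). For TCP15 (2.55 ± 0.60, adjusted p = 0.0573) and AT3G56510 (1.25 ± 0.32, adjusted p = 0.0919), both called higher in basal segments, the difference between regions did not pass.

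CASP1 was called lower in basal and not in medial segments, where it had 597 ± 227 CPM in ahk3 ahk4 and 668 ± 183 CPM in WT (-0.16 ± 0.27, adjusted p = 0.823), but the difference between regions did not pass (-1.48 ± 0.38, adjusted p = 0.0923). IAA17 and GH3.6 were lower at both places, with medial fold changes of -0.89 ± 0.27, adjusted p = 0.0406 for IAA17 and -1.46 ± 0.26, adjusted p = 0.000391 for GH3.6, and PIP2;7 and HSP70 were called at both places, with medial fold changes of -1.51 ± 0.20, adjusted p = 5.52e-06 for PIP2;7 and 1.74 ± 0.25, adjusted p = 2.37e-05 for HSP70. The regional difference was -0.06 ± 0.27, adjusted p = 0.996 for PIP2;7 and 0.51 ± 0.34, adjusted p = 0.751 for HSP70.

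At 8 h after the cut fewer genes were called in basal segments, with 26 lower (0.131%) and 32 higher (0.161%), and at 16 h there were 526 lower (2.65%) and 456 higher (2.3%). The WT basal 8 h group was uneven, with 46.9%, 12.7% and 13.3% of reads aligned at more than 1 place. In ahk3 ahk4 at 8 h that share was 10.5% to 20.4%. The change of the genotype difference between 0 and 8 h passed for 165 genes (0.833%), 123 with a lower value (0.621%) and 42 with a higher value (0.212%) at 0 h. Of the genes named here it passed for 33, and 22 of these held without any of the 12 libraries. With the share of reads aligned at more than 1 place as a covariate, it passed for 60 genes with a lower and 21 with a higher value at 0 h.

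PRK and RBCS1A changed sides. PRK was lower in the mutant at 0 h and higher at 8 h, at 15.4 ± 4.34 CPM in ahk3 ahk4 and 5.25 ± 2.46 CPM in WT (1.56 ± 0.35, adjusted p = 0.0346), so that the fold changes differed by -4.18 ± 0.52, adjusted p = 9.71e-06. RBCS1A was 113 ± 24.4 CPM in ahk3 ahk4 and 35.6 ± 10.1 CPM in WT at 8 h (1.67 ± 0.26, adjusted p = 0.000387), a difference of -2.89 ± 0.37, adjusted p = 1.28e-05. RBCS3B did the same (1.6002 ± 0.30, adjusted p = 0.00362 at 8 h, difference -3.69 ± 0.44, adjusted p = 6.17e-06). So did AT1G29660, a GDSL lipase gene with 4.15, 1.77 and 2.84 CPM in ahk3 ahk4, against 18.3, 8.34 and 16.9 CPM in WT at 0 h (-2.27 ± 0.32, adjusted p = 1.48e-05). Its fold change at 8 h was 1.27 ± 0.28, adjusted p = 0.0278, a difference of -3.55 ± 0.43, adjusted p = 6.17e-06. Of the photosystem and Calvin cycle list 7 of 13 members passed this test, all with the lower value at 0 h. So did 4 of 9 chlorophyll synthesis and 2 of 16 antenna genes, where 0.621% of all genes passed in that direction.

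HSP70 was no longer apart, with 305 ± 53.4 CPM in ahk3 ahk4 and 302 ± 73.9 CPM in WT at 8 h (difference 2.23 ± 0.35, adjusted p = 0.000275). ASN2 was at 133 ± 23.7 CPM in ahk3 ahk4 and 136 ± 24.6 CPM in WT and XTH32 at 107 ± 8.65 CPM in ahk3 ahk4 and 121 ± 17.1 CPM in WT. The fold change at 0 h minus that at 8 h was -2.30 ± 0.35, adjusted p = 0.000237 for ASN2 and -2.14 ± 0.36, adjusted p = 0.00104 for XTH32. For NAC097 the levels at 8 h were 4.68 ± 1.58 CPM in ahk3 ahk4 and 6.58 ± 1.85 CPM in WT (difference 3.06 ± 0.47, adjusted p = 0.000237). AT5G51440 (2.56 ± 0.38, adjusted p = 0.000181), AT3G56260 (3.65 ± 0.54, adjusted p = 0.000174), UGT74B1 (1.59 ± 0.32, adjusted p = 0.00646), PIP2;7 (-1.47 ± 0.28, adjusted p = 0.00332) and NIA2 (-1.80 ± 0.30, adjusted p = 0.000783) changed too. Auxin-induced genes did so in part. IAA1 passed (-2.21 ± 0.48, adjusted p = 0.0138), as did IAA17 (-1.65 ± 0.38, adjusted p = 0.0208) and GH3.6 (-1.6018 ± 0.37, adjusted p = 0.0188), but IAA17 and GH3.6 did not pass without 5 of the 12 libraries each, with adjusted p up to 0.0943 for IAA17 and 0.0761 for GH3.6.

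CASP1 and PER64 were lower in ahk3 ahk4 at 8 h as well. CASP1 was at 26.1 ± 8.70 CPM in ahk3 ahk4 and 107 ± 32.98 CPM in WT at 8 h (-2.03 ± 0.28, adjusted p = 6.06e-05), and the change from 0 h did not pass (0.39 ± 0.38, adjusted p = 0.797). PER64 was at 7.56 ± 4.07 CPM in ahk3 ahk4 and 56.6 ± 20.6 CPM in WT (-2.89 ± 0.32, adjusted p = 6.21e-07; change 1.06 ± 0.42, adjusted p = 0.302). AHK3 likewise was low throughout, with 4.16 ± 3.38 CPM in ahk3 ahk4 and 47.8 ± 3.78 CPM in WT at 8 h. AT1G64795 and AT1G27565 had no WT read in basal segments at 8 h or in medial segments at 0 h either, while mutant levels at 8 h were 5.79 ± 1.97 CPM for AT1G64795 and 11.7 ± 4.77 CPM for AT1G27565.

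**Figure D5:**
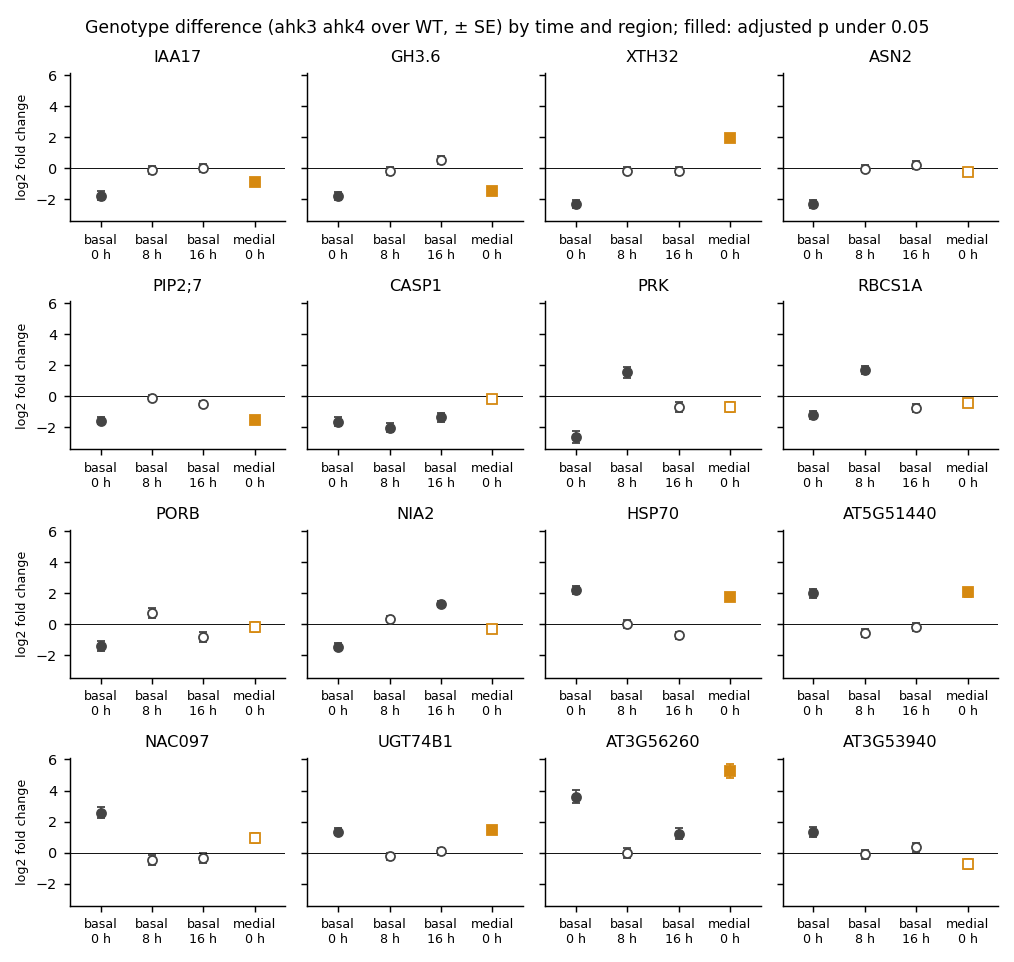
Log2 fold change of ahk3 ahk4 over WT ± SE (vertical axes, shared) for 16 genes in basal segments at 0, 8 and 16 h (circles) and in medial segments at 0 h (squares), with filled symbols at an adjusted p under 0.05. XTH32 lies below 0 in basal and above 0 in medial segments at 0 h, PRK and RBCS1A change side between 0 and 8 h, and CASP1 stays below 0 at all basal times.

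Neighbours of the mutated genes were examined because the labels give no crossing history. Of 25 tested loci among the 20 on either side of AHK3, NPGR1 was the 1 called, where 3.08% of all genes were, and 4 had an unadjusted p under 0.05. NPGR1 was lower by at least 5.70-fold on 19 WT reads (3.72-fold without WT 1) and 17 loci away, and its call ended without ahk3 ahk4 1, 2 or 3 or WT 1 (up to 0.0848). Of 26 around AHK4, 0 were called by edgeR or DESeq2, with 5 at an unadjusted p under 0.05. AT1G27565, which had reads in the mutant alone, lies 33 loci from AHK3.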

How the data were processed

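RNeasy extraction and QuantSeq forward 3' libraries are recorded in the labels' protocols. The deposited values are raw counts per locus for 36 libraries. The submitters' processing notes name HTSeq and DESeq2, with aligner, genome build, annotation and strand setting not given in the sources used here. Lines that name no gene held 46.5% to 62.2% of the reads in ahk3 ahk4 basal 0 h libraries and 37.3% to 42.9% in WT, and were left out of library sizes and tests.

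Counts of all 36 libraries were fitted together in edgeR 4.0.16 (R 4.3.3), with TMM scaling, filterByExpr (19819 of 32833 loci kept), 1 mean per group, a robust quasi-likelihood fit and Benjamini-Hochberg adjustment over all genes kept. DESeq2 1.42.0, other filters and scalings, covariates and omitted libraries were alternatives. The procedure was checked on simulated data with 50 genes at each true log2 change, drawn from genes with higher counts, and a fixed spread for all genes. It called 94% of genes set at -2 and 96% at 2, but 28% at -1 and 24% at 1, with 7 false calls. Genes and lists without a call can therefore hold differences of about 1 on the log2 scale. Genes with fewer reads or a wider spread than those simulated can hold larger ones. Examples without a call were PRR9 (-4.08) and CRF2 (2.70).

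Symbols came from the RefSeq TAIR10.1 table, which pairs 583 of 591 list members with the name used. The members and lists were chosen with earlier results of these data known. Genes named by rule were the 12 highest and 12 lowest called genes without overlap between groups and with a group mean of at least 5 CPM, up to 3 members per list with the smallest adjusted p, the receptors, and the 3 leading genes per direction of each interaction. Further list members were named after their values were seen. Not every gene that the rule selects is reported here.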

Additional observations from a re-analysis of the deposited data

Results flagged for a closer look

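The share of reads aligned at more than 1 place was 44.2% in the ahk3 ahk4 basal 0 h library with the least, above every WT basal 0 h library. Its part in the gene calls was tested only through the covariate fit.

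Genotype differences that changed between 0 and 8 h in basal segments, by edgeR's test of the difference itself, are given here as the log2 fold change at 0 h minus that at 8 h. Among auxin and growth genes the difference was -2.96 for SAUR14, -2.21 for IAA1, -1.65 for IAA17, -1.60 for GH3.6, -2.14 for XTH32 and -1.47 for PIP2;7. Among genes of photosynthesis it was -4.37 for LHCB2.2, -4.18 for PRK, -2.89 for RBCS1A, -3.69 for RBCS3B and -2.18 for PSBP-1. Chlorophyll synthesis gave -2.26 for CRD1, -2.15 for PORB and -1.35 for GUN5. Nutrient genes gave -1.80 for NIA2, -1.54 for NRT1.1, -1.42 for FER1 and -2.30 for ASN2, and the lipase gene AT1G29660 gave -3.55.

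Positive differences, with the mutant relatively higher at 0 h, were 2.23 for HSP70, 2.56 for AT5G51440, 1.59 for UGT74B1, 1.49 for SOT16, 3.65 for AT3G56260, 2.97 for AT3G24420, 3.06 for NAC097 and 2.36 for AT5G09840. For genes with few reads in 1 group the adjusted p of the difference is given instead. It was 0.0344 for IAA6, 0.000121 for RGF6, 0.00094 for RBCS2B, 0.0120 for ELIP1, 0.0289 for TT4 and 0.0458 for GATA23. Without ahk3 ahk4 basal 8 h replicate 1 that of RGF6 was 1.00. The differences of AT3G24420, ELIP1, FER1, GATA23, GH3.6, IAA17, IAA6, LHCB2.2, SAUR14 and TT4 also missed the threshold without at least 1 of the 12 libraries, with adjusted p up to 0.195 for TT4.

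Between basal and medial segments at 0 h, basal minus medial, the difference was -4.23 for XTH32, -2.06 for RBCS3B, -2.36 for ST2A, -2.10 for ASN2 and 2.07 for AT3G53940. The adjusted p of that difference was 0.00788 for SAUR20, 0.0263 for SAUR24, 0.00738 for RGF6 and 0.0431 for RBCS2B.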

How the results depend on the processing

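The count of genes higher in ahk3 ahk4 basal segments at 0 h, 167 with edgeR, was 300 with DESeq2, 554 with a fit of the compared groups only, 274 with the share of reads outside annotated genes as a covariate, and 68 to 137 without 1 library. The count of lower genes, 443, was 773 with the compared groups only and 247 to 344 without 1 library. For the genotype by region difference, 6 genes with a higher value became 10 without a filter on low counts, 55 with DESeq2, 27 with the compared groups only, 12 with the share of reads aligned at more than 1 place as a covariate, 22 with the share outside genes, and 0 to 9 without 1 library. The 41 with a lower value became 106 with DESeq2 and 12 to 64 without 1 library. For the difference between 0 and 8 h, the 42 with a higher value became 106 with DESeq2, 21 with the share aligned at more than 1 place and 22 to 45 without 1 library. The 123 with a lower value became 247 with DESeq2, 60 with that share and 79 to 129 without 1 library. The cause was not tested.

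Of the 610 genes called, 604 were called in the same direction with DESeq2, 413 with the share of reads aligned at more than 1 place, 493 with the compared groups only (where 44 were not tested) and 211 without each of the 6 libraries in turn. Without WT replicate 2, 1 gene changed sign. Replicate numbers did not pair the samples, since deviations of same-numbered libraries correlated at 0.00, -0.02 and -0.05. With the replicate block the basal 0 h counts were 167 higher and 445 lower, those by region 6 higher and 43 lower, and those by time 44 higher and 132 lower. The floor of 3 reads limits what can be said of genes without reads.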

Other observations

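Families were grouped by the product names of the reference annotation, a grouping chosen after the values were seen, and are described with no test. Only families with at least 10 tested and at least 3 called genes were kept, so each had calls by selection. They share genes with the lists above and are not independent of them. Families with more higher than lower calls, such as 3-ketoacyl-CoA synthases (2 higher and 1 lower of 14), were also kept and are not all given here. Of 56 tested genes annotated as SAUR-like, 23 were called lower in ahk3 ahk4 basal segments at 0 h and none higher, with a median log2 fold change of -3.35, where 2.24% of all genes were called lower. Of 41 peroxidase genes, which act on walls and lignin among other things, 9 were lower and none higher (median -1.03). Of 19 xyloglucan endotransglucosylase/hydrolase genes 7 were lower and none higher (median -1.13). Of 18 dirigent-like genes, a family with roles in lignin and lignan formation, 5 were lower and none higher, and of 25 arabinogalactan protein genes 5 were lower and none higher. Among 41 pectin lyase-like genes 7 were lower and 1 higher. Among 50 lipid-transfer protein genes 7 were lower and none higher.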
